A study of Rattus norvegicus with 12 samples.

Results

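Gene expression was compared between the jejunum and the duodenum of heterozygous Belgrade rats, written +/b. The comparison took every array labelled +/b jejunum (3) against every array labelled as the heterozygote's duodenum (3, written "+b" in those titles), which is 6 of the 12 arrays of the study. The Belgrade allele, b, is a recessive mutation of Slc11a2, which encodes DMT1, a transporter of divalent metals, so both segments came from animals with 1 mutant and 1 normal copy, and no group without the allele was analysed here. The tissue was a scrape of each segment, the replicate was a group of rats that supplied both segments, and the number, age, sex and diet of the rats in a group are not stated in the labels. The other 6 arrays were the same segments from b/b rats, which carry the mutation on both copies. They entered the estimate of the spread, the filter on mean signal, the choice of each gene's brightest probe set and a closing comparison.

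The duodenum is the first segment of the small intestine. It receives gastric acid, bile and pancreatic juice, and it is known as the main site of regulated iron and calcium absorption. The jejunum follows it and takes up most of the digested fat, sugar and protein, while vitamin B12 and bile acids are recovered mainly in the ileum. A scrape of the mucosa holds enterocytes together with goblet, Paneth and enteroendocrine cells, crypt cells and cells of the lamina propria, and in such tissue fewer cells of a type and less RNA per cell cannot be told apart.

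Signals are linear array intensities scaled so that each array had a 2% trimmed mean of 500, and a log2 change is the mean over 3 rat groups of log2(jejunum signal + 16) minus log2(duodenum signal + 16), with the moderated standard error (SE) of the fit. Before scaling, the trimmed mean was 51.6 in +/b duodenum replicate 2 and 126.6 in replicate 3, against 500.2 in replicate 1, and these arrays were multiplied by 9.69 and 3.95. Duodenum replicate 2 also stood apart in its markers of other tissue. The summed signal of 16 exocrine pancreas markers was 205750 in it and 1234 to 1811 in the other 5 +/b arrays, and that of 6 Brunner gland and stomach markers was 1468 against 270.2 to 416.2. The 8 enterocyte markers summed to 447230, 398240 and 238200 in duodenum replicates 1, 2 and 3 and to 374680, 271290 and 167320 in the jejunum, lower in the jejunum of every rat group. Of these markers, each of the 8 had a log2 change below 0 and 1 passed the threshold.

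Of 17694 probe sets tested, 86 (0.486%) differed between the segments at a limma Benjamini-Hochberg adjusted p under 0.05. The jejunum was higher at 30 of them (0.17%) and lower at 56 (0.316%). They represented 24 genes that were higher and 45 that were lower, beside 2 probe sets annotated to several genes and 6 with no gene in the annotation. All 86 moved the same way in each of the 3 rat groups, 78 had no overlap between the 3 jejunum and the 3 duodenum arrays, 28 exceeded a 4-fold change and 21 stayed under a 2-fold change. Over all probe sets, 6.1% had every jejunum array above every duodenum array and 4.71% had the reverse. The count depended on how the spread was estimated. Without the rat group as a replicate block 10 probe sets passed, and with a prior variance that ignored signal intensity 2 passed, S100g and Ugt2b7 (limma adjusted p = 0.0482 and 0.0493). A robust prior, chosen after seeing the data, left 68, of which 66 were among the 86. Without rat group 1, 2 or 3 the counts were 11, 36 and 66. Of 91 genes followed across these settings 61 were called, and 8 of them were called in each fit that left out a rat group.

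**Figure D1:**
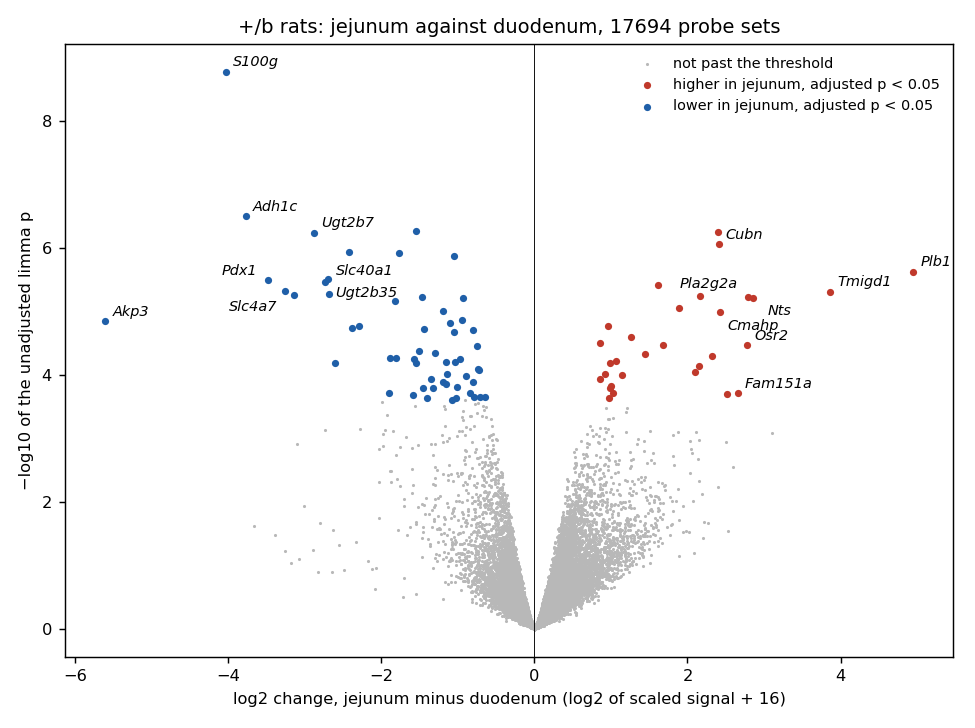
Log2 change of each of the 17694 probe sets (jejunum minus duodenum in +/b rats) on the horizontal axis against the unadjusted limma p on a −log10 scale. Red points are the 30 probe sets called higher and blue points the 56 called lower in the jejunum, with 8 genes of largest change named in each direction, and S100g has the smallest p.

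S100g and Atp2b1, genes of calcium transport, fell in the jejunum. S100g, which encodes calbindin-D9k, a carrier of calcium through the enterocyte, had signals of 27001, 20242 and 23662 in duodenum arrays against 1210, 1817 and 1311 in jejunum arrays of rat groups 1, 2 and 3. The lowest duodenum value was far above the highest jejunum value. The change was -4.03 ± 0.23 (16.3-fold lower, n = 3 rat groups, limma adjusted p = 2.94e-05), and it passed in each fit that left out a rat group. Atp2b1, a plasma membrane calcium pump, fell from 9513, 3801 and 11439 to 3231, 2111 and 2886 (-1.46 ± 0.26, limma adjusted p = 0.0392). This call was lost whichever rat group was left out (limma adjusted p = 0.0511 to 0.273). Trpv6, the apical calcium channel, had -1.09 ± 0.39 and the vitamin D receptor Vdr -0.75 ± 0.37, and neither passed (limma adjusted p = 0.353 and 0.496). In the list of calcium and vitamin D genes 1 of 12 was higher (Abcb1a, a drug efflux pump counted there as a vitamin D target, 0.98 on its brightest probe set) and 2 were lower, with a median change of -0.19 against 0.05 over all probe sets.

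Slc40a1, Slc11a2 and Cybrd1, genes of iron export, uptake and reduction, fell in the jejunum. Slc40a1, the basolateral iron exporter ferroportin, gave duodenum signals of 7536, 7786 and 8881 and jejunum signals of 674.1, 1367 and 1853, without overlap. Its change was -2.73 ± 0.32 (limma adjusted p = 0.0046) on the called probe set of largest change. The gene had 3 probe sets tested, 2 of them called, with changes from -2.73 to -1.99. Slc11a2, the apical transporter that the Belgrade mutation affects, had 3056, 3839 and 6080 against 415.7, 618.3 and 1149 on its called probe set (-2.61 ± 0.42, limma adjusted p = 0.0208). The dimmer probe set of the gene moved the same way but less, by -1.21. Cybrd1, a brush border ferric reductase, fell from 599.8, 771.1 and 1157 to 228.2, 174.4 and 268.5 (-1.81 ± 0.29, limma adjusted p = 0.0202). These were the 3 members called among 23 iron genes, all lower, and the median of the list was -0.03. The basolateral ferroxidase Heph had -0.40 ± 0.13 and the transferrin receptor Tfrc 0.59 ± 0.16, neither past the threshold (limma adjusted p = 0.296 and 0.208). Without rat group 1 the 3 calls were lost (limma adjusted p = 0.0857 for Slc40a1, 0.233 for Slc11a2 and 0.109 for Cybrd1). Without rat group 2 those of Slc11a2 and Cybrd1 were lost (0.128 and 0.134), and without rat group 3 that of Cybrd1 (0.0601). With the robust prior, limma adjusted p was 0.0683 for Slc40a1 and 0.269 for Slc11a2.

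Akp3, an intestinal alkaline phosphatase of the brush border, had the largest fall. Its signals were 5138, 4417 and 5343 in duodenum arrays against 59.2, 22.9 and 345.1 in jejunum arrays. The duodenum arrays lay close together, whereas the jejunum arrays were spread widely. The change was -5.61 ± 0.77 (limma adjusted p = 0.00864). As 2 of the jejunum signals lie under 100, the mean signal asked of a tested probe set, its size depends on the constant added before the log, with -5.96 for a constant of 1 and -4.94 for 64. It was lost without rat group 1 or 2 (limma adjusted p = 0.134 and 0.0849) and with the robust prior (0.267). Alpi, the neighbouring phosphatase gene, was much brighter and changed less, from 32274, 32636 and 26209 to 18748, 19834 and 14116 (-0.80 ± 0.14, limma adjusted p = 0.0339), and it was lost whichever rat group was left out (limma adjusted p = 0.119 to 0.212). These were the 2 called among 5 phosphatase and phosphate transport genes.

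**Figure D2:**
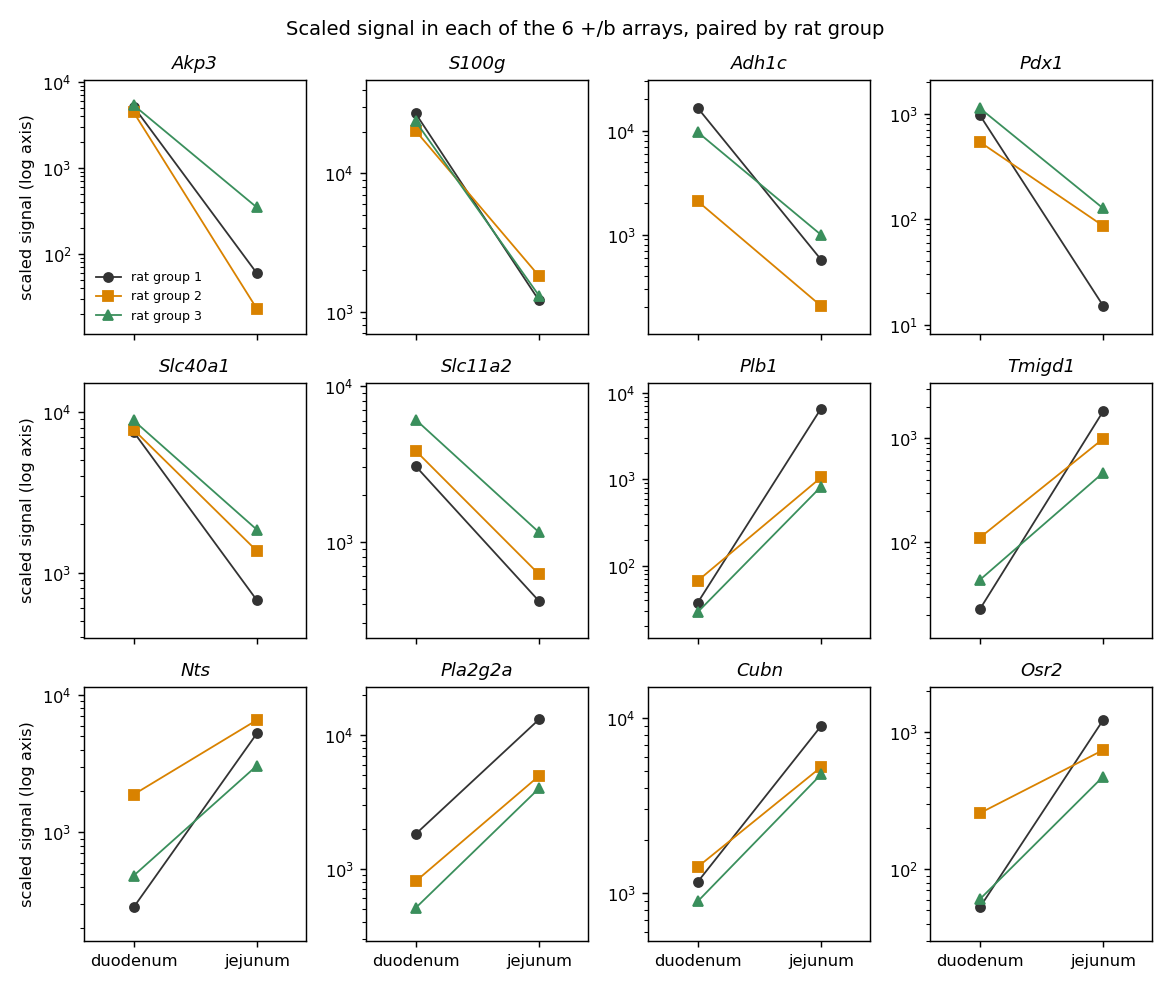
Scaled signal (log axis) of 12 genes in the 6 +/b arrays, with a line joining the duodenum and the jejunum array of each of the 3 rat groups. The first 6 genes fall and the last 6 rise in every rat group, and for S100g the duodenum arrays lie between 20242 and 27001 and the jejunum arrays between 1210 and 1817.

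Among transcription factors of intestinal regions, Pdx1 fell and Osr2 rose. Pdx1, a homeobox factor of the duodenum and pancreas, gave duodenum signals of 968.8, 538.8 and 1127 and jejunum signals of 15.1, 86.3 and 126.6 (-3.48 ± 0.41, limma adjusted p = 0.0046). Its lowest duodenum signal was in replicate 2, and in rat group 1 alone the change was -4.98. The part of the pancreas tissue of duodenum replicate 2 in these signals was not tested. With 2 of its jejunum signals under 100, the change was -3.89 with a constant of 1 added before the log and -2.78 with 64. Pdx1 passed in each fit that left out a rat group. Osr2, a zinc finger factor, had 52.7, 256.5 and 60.4 against 1227, 740.6 and 474.3 (2.78 ± 0.42, limma adjusted p = 0.0149), and it was lost without rat group 1 (limma adjusted p = 0.13). Onecut2 had -1.93 ± 0.39 without overlap between the segments but did not pass (limma adjusted p = 0.0738). Gata4, Cdx1, Cdx2 and Hnf4a, factors of intestinal identity, had changes of -0.28, 0.43, 0.24 and -0.16 (limma adjusted p = 0.58 to 0.742). In all 1 of 17 such factors was higher and 1 lower.

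The promoters of the 3 genes of largest fall and of largest rise that have an entry in the RefSeq promoter table (build GRCr8) show the sequence upstream of the genes that differ most. Each runs from 250 bases before to 50 bases after the start of the gene, and capitals mark letters searched on both strands: AGATAA for GATA factors, CAAAGT for HNF4, GTTAAT for HNF1 and TTTATG for CDX factors.
Akp3: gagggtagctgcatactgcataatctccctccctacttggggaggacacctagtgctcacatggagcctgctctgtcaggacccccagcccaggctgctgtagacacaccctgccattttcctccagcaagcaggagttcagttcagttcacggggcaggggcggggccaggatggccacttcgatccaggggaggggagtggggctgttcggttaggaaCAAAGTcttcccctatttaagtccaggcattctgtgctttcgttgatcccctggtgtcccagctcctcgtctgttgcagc
Adh1c: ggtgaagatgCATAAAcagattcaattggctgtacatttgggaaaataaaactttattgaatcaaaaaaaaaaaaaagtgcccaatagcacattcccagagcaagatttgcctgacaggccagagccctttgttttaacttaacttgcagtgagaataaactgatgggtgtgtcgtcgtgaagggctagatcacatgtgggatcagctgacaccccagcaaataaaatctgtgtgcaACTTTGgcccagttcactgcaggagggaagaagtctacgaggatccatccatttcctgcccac
Pdx1: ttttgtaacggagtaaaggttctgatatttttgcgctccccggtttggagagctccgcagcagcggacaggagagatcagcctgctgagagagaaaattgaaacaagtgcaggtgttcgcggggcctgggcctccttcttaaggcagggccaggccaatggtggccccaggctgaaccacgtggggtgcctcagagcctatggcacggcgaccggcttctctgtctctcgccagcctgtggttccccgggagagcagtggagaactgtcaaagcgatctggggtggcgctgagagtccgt
Plb1: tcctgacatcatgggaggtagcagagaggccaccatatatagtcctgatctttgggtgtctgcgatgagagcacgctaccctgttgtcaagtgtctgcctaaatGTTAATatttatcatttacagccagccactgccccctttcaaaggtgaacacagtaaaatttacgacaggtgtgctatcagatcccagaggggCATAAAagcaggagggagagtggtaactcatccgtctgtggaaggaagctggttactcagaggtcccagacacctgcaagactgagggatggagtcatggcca
Tmigd1: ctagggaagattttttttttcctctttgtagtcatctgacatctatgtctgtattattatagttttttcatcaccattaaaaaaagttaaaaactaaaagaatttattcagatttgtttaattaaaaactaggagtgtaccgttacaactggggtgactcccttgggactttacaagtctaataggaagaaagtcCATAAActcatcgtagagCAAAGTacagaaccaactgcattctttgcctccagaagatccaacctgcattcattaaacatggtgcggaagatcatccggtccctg
Nts: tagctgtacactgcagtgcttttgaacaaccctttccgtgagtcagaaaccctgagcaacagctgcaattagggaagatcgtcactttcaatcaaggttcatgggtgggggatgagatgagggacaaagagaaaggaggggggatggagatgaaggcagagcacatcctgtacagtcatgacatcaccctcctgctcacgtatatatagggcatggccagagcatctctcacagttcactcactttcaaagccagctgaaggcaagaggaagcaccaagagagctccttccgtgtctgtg
The strands and positions are Akp3 chr9:95252331-95252630 (+), Adh1c chr2:229470453-229470752 (+), Pdx1 chr12:12799107-12799406 (−), Plb1 chr6:29930134-29930433 (−), Tmigd1 chr10:62236965-62237264 (+) and Nts chr7:39460839-39461138 (−). The HNF4 letters began at -30 in Akp3, -13 in Adh1c and -37 in Tmigd1, counted from the start of the gene. The CDX letters began at -240 in Adh1c, -53 in Plb1 and -55 in Tmigd1, and the HNF1 letters at -146 in Plb1. Pdx1 and Nts held none of the 4 motifs in this window. The HNF4 letters were in 7 of 19 promoters of higher genes and 10 of 41 of lower genes, against 11.1% of 8414 promoters of tested genes and 14.6% of all 27457. For GATA these numbers were 2 and 6 (6.42% and 11.3%), for HNF1 3 and 1 (4.14% and 7.37%) and for CDX 4 and 5 (6.43% and 12.5%). A match is a description of letters.

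Some enzymes that oxidise, reduce or conjugate alcohols, steroids and xenobiotics fell in the jejunum, and most members of these lists did not pass. Adh1c, a class I alcohol dehydrogenase, gave duodenum signals of 16549, 2095 and 9670 and jejunum signals of 574.7, 206.1 and 995.7 (-3.77 ± 0.35, limma adjusted p = 0.00201). Replicate 2 was the lowest in both segments, and the fall was largest in rat group 1. The neighbouring Adh4 fell by 2.30 ± 0.32 on the log2 scale (limma adjusted p = 0.00942). Of 20 genes listed as alcohol and aldehyde dehydrogenases and aldo-keto reductases, 7 were lower and 0 higher. In that list 7 lay above 0 (up to 1.21) and the median was -0.54. It also held other oxidoreductases, of which Hsd17b2 and Ldhd were called lower. Of 20 cytochrome P450 genes 0 passed in limma (6 at an unadjusted p under 0.05), with 15 below 0 and a median of -0.21. Among the aldo-keto reductases Akr1c15 had -2.42 ± 0.25 and Akr1b8 -1.05 ± 0.11, and Akr1c13, which was not on the list, had -1.10 ± 0.15. Ugt2b7 and Ugt2b35, glucuronosyltransferases that lie side by side, had -2.88 ± 0.28 and -2.70 ± 0.31 (limma adjusted p = 0.00201 and 0.0046). Papss2, which makes the sulfate donor of sulfotransferases, had 20772, 13865 and 23435 against 5189, 4974 and 5022 (-1.90 ± 0.35, limma adjusted p = 0.0447). Its other probe set had -1.58 and was also called. Of 7 conjugation genes 3 were lower and 0 higher. Members of the Ugt2b, Akr1c and Adh families are near copies of each other, so a probe set can read more than 1 of them. Adh1c, Ugt2b7 and Akr1b8 passed in each fit without a rat group, while Adh4, Ugt2b35, Akr1c15, Akr1c13 and Papss2 were lost without rat group 1 (limma adjusted p = 0.134, 0.0774, 0.0653, 0.117 and 0.288). Without rat group 2, Adh4, Akr1c13 and Papss2 were lost as well (0.0734, 0.0734 and 0.121), and Papss2 also without rat group 3 (0.119).

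Slc4a7, Slc4a4, Car9 and Car2, genes of bicarbonate transport and carbonic anhydrases, fell in the jejunum. Slc4a7, a sodium bicarbonate cotransporter, gave duodenum signals of 2986, 2223 and 5768 and jejunum signals of 323.1, 360.1 and 425.6 (-3.14 ± 0.39, limma adjusted p = 0.00476). Its brighter probe set had -2.69 and was also called. The related Slc4a4 had -1.35 ± 0.23 (limma adjusted p = 0.0312), Car9 -1.44 ± 0.20 and Car2 -0.97 ± 0.15 on the dimmer of its probe sets. The brighter Car2 probe set had -0.94 ± 0.19 and did not pass (limma adjusted p = 0.0763). Car4, another carbonic anhydrase, had 0.93 ± 0.18, with every jejunum array above every duodenum array, and did not pass (limma adjusted p = 0.0606). By the brightest probe set of each gene, 3 of 21 acid-base and chloride genes were lower (Slc4a7, Slc4a4 and Car9) and 0 higher, while 7 lay above 0 and the median was -0.33. Without rat group 1 the calls of Slc4a7, Slc4a4, Car9 and Car2 were lost (limma adjusted p = 0.094, 0.124, 0.124 and 0.18). Those of Slc4a4 and Car2 were also lost without rat group 2 (0.0849 and 0.0857) or 3 (0.0965 and 0.0745).

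Other transcripts lower in the jejunum included nucleoside, anion and immune genes. Slc28a2, a concentrative nucleoside transporter, had 27057, 12931 and 15955 against 5508, 5395 and 7160 (-1.57 ± 0.25, limma adjusted p = 0.0204). Ada, the adenosine deaminase, had -1.05 ± 0.15 and Upp1, a uridine phosphorylase, -0.79 ± 0.15. The sulfate transporter Slc13a1 had -1.30 ± 0.20. Tnfsf13, the B cell survival cytokine APRIL, had 2673, 1490 and 2526 against 902.7, 378.3 and 547.7 (-1.89 ± 0.30, limma adjusted p = 0.0202). Pigr, which carries IgA across the epithelium, had -0.84 ± 0.15. Wfdc21 had -1.55 ± 0.25, and Htatip2 had -1.54 ± 0.15, from 3556, 3418 and 3579 to 1283, 1002 and 1340. Htatip2 passed in each fit without a rat group, and the other 7 were lost without rat group 1 (limma adjusted p = 0.0774 to 0.237) and without rat group 2 (0.0734 to 0.223). Without rat group 3, Upp1, Slc13a1, Tnfsf13 and Pigr were lost (0.216, 0.0621, 0.0608 and 0.0617).

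In the jejunum, Plb1, a brush border phospholipase of lipid digestion, showed the largest rise. Its signals were 37.6, 67.3 and 29.2 in duodenum arrays against 6584, 1052 and 823.0 in jejunum arrays. Every jejunum array was above every duodenum array, and rat group 1 had the highest jejunum value. All 3 duodenum signals lie under 100, so the duodenum level is not shown to be above background and no fold is given. The change was 4.95 ± 0.56 on the log2(signal + 16) scale (limma adjusted p = 0.00415), 5.38 with a constant of 1 and 4.12 with 64. It passed without each rat group but not with the robust prior (limma adjusted p = 0.109). Tmigd1, an immunoglobulin-domain membrane protein, had 22.6, 110.4 and 43.3 against 1814, 987.6 and 465.0 (3.86 ± 0.47, limma adjusted p = 0.00476), and it passed in each such fit and with the robust prior. With 2 of its duodenum signals under 100, its change was 4.27 with a constant of 1 and 3.11 with 64. Plb1 was the only 1 of 24 lipid absorption genes called. Apoa4, Fabp1 and Fabp2, abundant genes of fat absorption, had -0.37, -0.51 and -0.41 and did not pass (limma adjusted p = 0.35, 0.23 and 0.394).

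Cubn and Folr1, receptors of vitamin uptake, rose. Cubn, the receptor of intrinsic factor-bound vitamin B12, gave duodenum signals of 1155, 1406 and 892.8 and jejunum signals of 8992, 5234 and 4755 (2.41 ± 0.25, limma adjusted p = 0.00253). Amn, its membrane partner, had 0.32 ± 0.15 and did not pass (limma adjusted p = 0.468). Folr1, a folate receptor, had 420.8, 1128 and 530.3 against 1417, 2954 and 1287 (1.45 ± 0.23, limma adjusted p = 0.0184). Slc19a1, the reduced folate carrier, went the other way (-1.15 ± 0.19, limma adjusted p = 0.0208). These made 2 higher and 1 lower of 11 vitamin uptake genes. Without rat group 1, limma adjusted p was 0.0513 for Cubn, 0.205 for Folr1 and 0.199 for Slc19a1. Without rat group 2 it was 0.103 for Folr1 and 0.119 for Slc19a1, and without rat group 3 0.0559 for Slc19a1.

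Paneth cell and antimicrobial genes were mostly higher in the jejunum, 4 of 8 called higher and 1 lower, with a median of 1.58. Pla2g2a, a secreted phospholipase of Paneth cells, had 1817, 804.7 and 508.4 against 13113, 4950 and 3993 (2.79 ± 0.35, limma adjusted p = 0.00476). The defensins Defa24 and RatNP-3b had 1.89 ± 0.25 and 2.32 ± 0.36, and the lysozyme gene Lyz2 1.27 ± 0.18. The lower gene was Pigr. The summed signal of the 5 Paneth markers, which include Pla2g2a and Lyz2, was 15150, 8468 and 12666 in duodenum arrays against 42093, 22931 and 20177 in jejunum arrays, higher in every rat group. Of the 4 markers tested, 3 lay above 0 and 1 below (-0.19). Pla2g2a and Lyz2 were the 2 called, and the largest change among the markers, 3.10, did not pass. The defensin genes resemble each other closely, so their probe sets may share signal. Without rat group 1 the calls of Pla2g2a, Defa24, RatNP-3b and Lyz2 were lost (limma adjusted p = 0.102, 0.102, 0.148 and 0.124), and without rat group 2 those of Defa24, RatNP-3b and Lyz2 (0.0672, 0.15 and 0.0987).

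Among 11 genes of enteroendocrine cells, hormones together with Chga, Chgb and Neurod1, 2 were higher and 0 lower. Nts, neurotensin, gave duodenum signals of 282.9, 1883 and 481.5 and jejunum signals of 5260, 6589 and 3061 (2.86 ± 0.36, limma adjusted p = 0.00476). Gcg, the precursor of GLP-1 and GLP-2, had 116.1, 801.1 and 194.6 against 981.5, 1441 and 1346 (2.15 ± 0.35, limma adjusted p = 0.0228). In both genes duodenum replicate 2 was the highest duodenum array, and rat group 2 had the smallest change. Ghrl (-1.53 ± 0.36) and Pyy (2.41 ± 0.71) had no overlap between the segments and did not pass (limma adjusted p = 0.128 and 0.245). Nts and Gcg were lost without rat group 1 (limma adjusted p = 0.0555 and 0.246) and Gcg also without rat group 3 (0.0833).

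Further genes of large rise were Fam151a (2.66 ± 0.49), Cmahp (2.42 ± 0.32), Slc39a10, a zinc importer (2.09 ± 0.35), and Rnf144b, a ubiquitin ligase (1.61 ± 0.19, limma adjusted p = 0.00476). Rnf144b had 310.1, 672.5 and 496.8 against 984.4, 1986 and 1633, with nearly equal ratios in the 3 rat groups. Without rat group 1 these 4 were lost (limma adjusted p = 0.314, 0.13, 0.254 and 0.0781), as were Fam151a and Slc39a10 without rat group 2 (0.0613 and 0.161) and Fam151a without rat group 3 (0.0833). Abcb1a, a drug efflux pump, had 0.99 ± 0.16 and was the gene called among 10 efflux transporters, and it was lost without rat group 1, 2 or 3 (limma adjusted p = 0.204, 0.0983 and 0.0692).

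Several groups of genes of absorption had no member past the threshold, including brush border peptidases (12 tested) and peptide and amino acid transporters (15). The same held for a list of hexose transport and sugar metabolism genes (8 tested). Treh was the only disaccharidase tested in it, and Lct, Sis and Mgam were not analysed here. The glucose transporter Slc5a1, the fructose transporter Slc2a5 and the peptide transporter Slc15a1 had changes of 0.00, 0.04 and 0.01, with 95% intervals of -0.61 to 0.62, -0.43 to 0.52 and -0.33 to 0.35. The ileal bile acid genes Fabp6 and Slc10a2 had 2.59 ± 0.68 and -0.05 ± 0.49 and did not pass (limma adjusted p = 0.183 and 0.985). Fabp6 was 23.05, 208.5 and 11.1 in duodenum arrays against 496.6, 374.6 and 243.1 in jejunum arrays, without overlap. Of 41 cell cycle genes 39 were above 0 and 0 were called (median 0.49). Of 23 cholesterol and fatty acid synthesis genes 19 were below 0 and 0 were called (median -0.48). At an unadjusted limma p under 0.05 stood 15 of the former and 12 of the latter, against 1912 of all 17694 probe sets. Of all probe sets 10008 were above 0 and 7686 below. The 21 exocrine pancreas genes all lay below 0 with 0 called. The filter took the mean over all 12 arrays. All 16 pancreas markers exceeded 100 in duodenum replicate 2, against 2 to 4 in each other +/b array. Changes below 0 were therefore favoured in advance. The median of the 21 genes was 0.05 in rat group 1, -6.85 in rat group 2 and -0.17 in rat group 3. The part of this tissue in the other changes of rat group 2 was not tested.

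**Figure D3:**
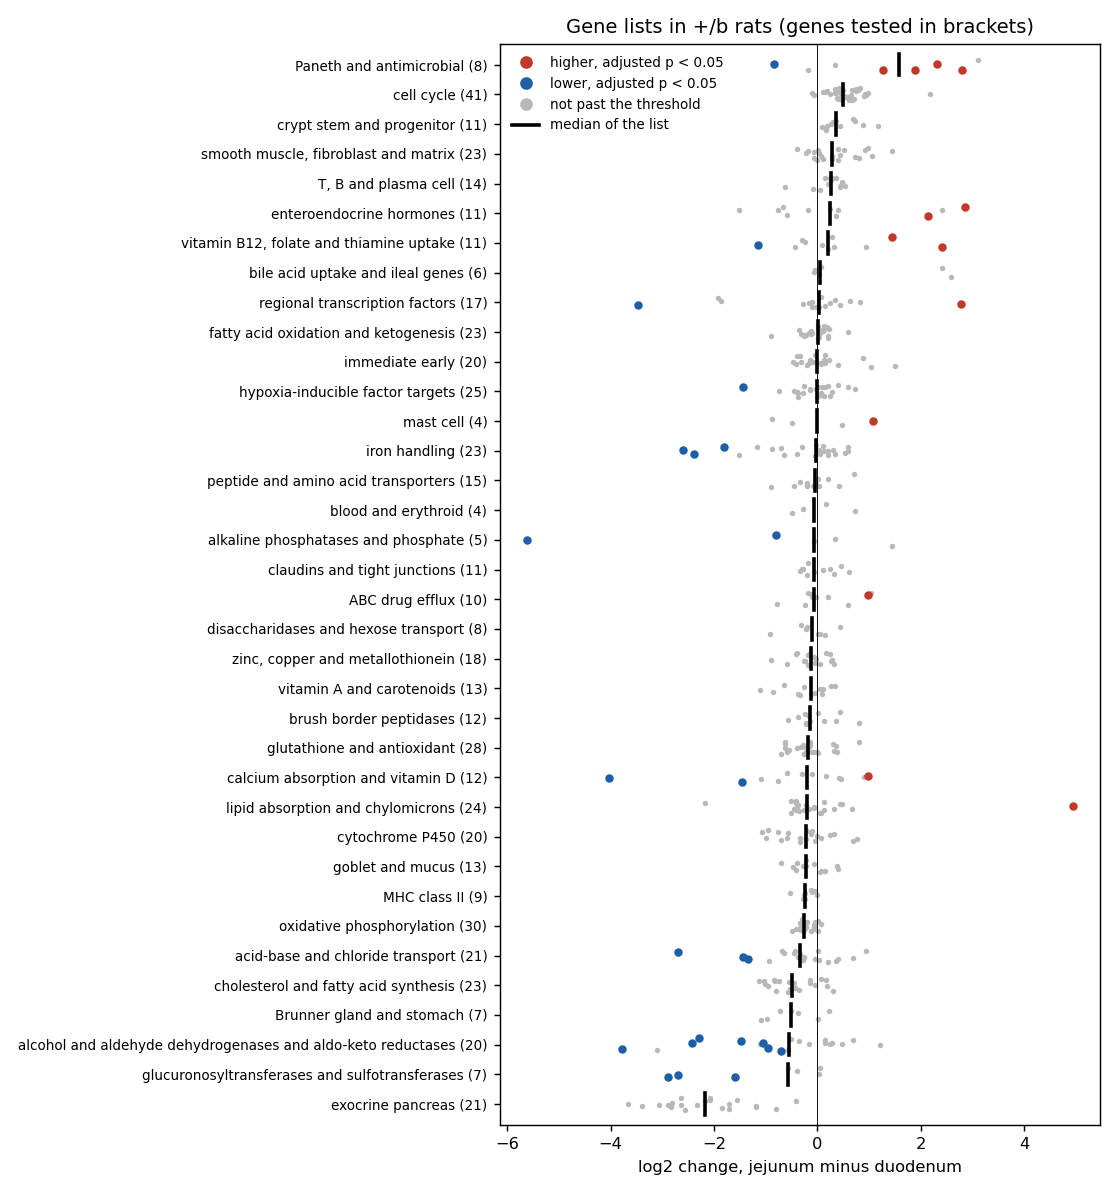
Log2 change (jejunum minus duodenum) of the tested genes of each list, each gene by its brightest probe set with 1 gene, ordered by the list's median (black bar). Paneth and antimicrobial genes have the highest median, 1.58, and exocrine pancreas genes the lowest, -2.17. By rat group 1, 2 and 3 the exocrine pancreas median was 0.05, -6.85 and -0.17.

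**Figure D4:**
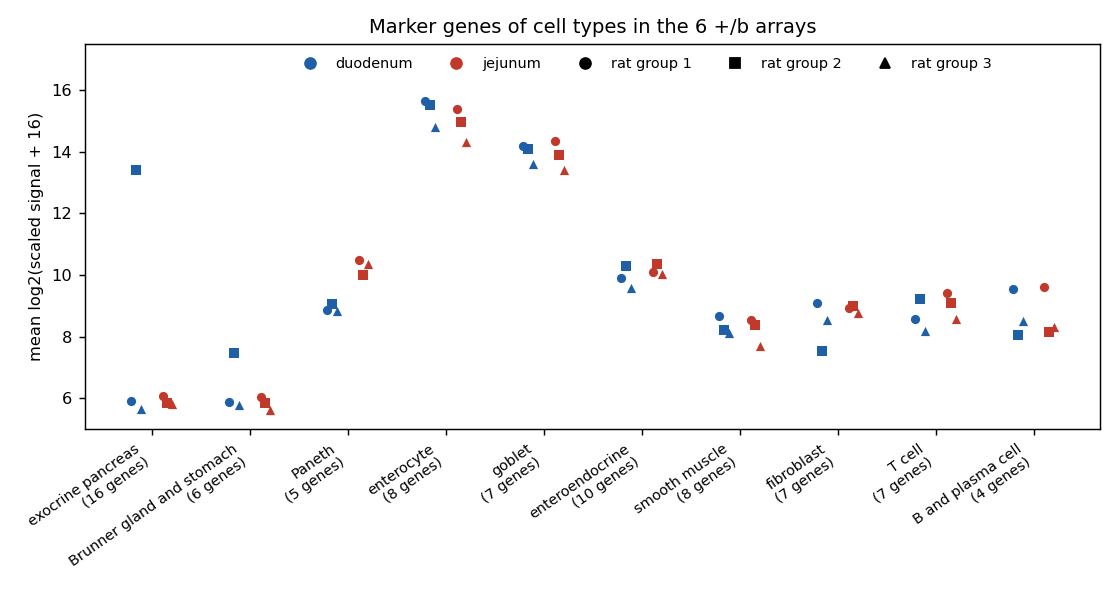
Mean log2(scaled signal + 16) of marker genes of 10 cell types in each of the 6 +/b arrays, with colour for the segment and symbol for the rat group. Duodenum replicate 2 stands apart for exocrine pancreas markers (13.42 against 5.65 to 6.09), and the 3 jejunum arrays lie above the 3 duodenum arrays for Paneth markers.

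Several probe sets were tested for some called genes, and they read the same RNA on the same arrays. At least 1 probe set of each such gene was called, so agreement in direction was favoured in advance and is no replication. Of 17 such genes all 17 had their probe sets in 1 direction, and 9 had at least 2 called. Some called genes were neighbours in the RefSeq gene order. In 8 pairs, 10 or fewer protein-coding genes lay between both members, and 7 of these pairs moved the same way. The share moving the same way over all pairs of called genes, 24 higher and 45 lower, was not computed. Pairs such as Ugt2b35 and Ugt2b7 or Adh1c and Adh4 belong to families whose probe sets may share signal. With 0 genes between them stood Ugt2b35 and Ugt2b7, Alpi and Akp3, and Stk3 and Osr2.

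In b/b rats, whose arrays are separate from those above, 431 probe sets (2.44%) differed between the segments, 208 higher and 223 lower in the jejunum. All 86 probe sets called in +/b rats had the same sign in b/b rats, and 80 were called in both, which is 93.0% of the +/b calls and 18.6% of the b/b calls. Both contrasts share 1 estimate of the spread per probe set, so a small estimate favours a call in both. The share of equal sign over all probe sets was not computed. S100g had -4.61 ± 0.23, Akp3 -6.13 ± 0.77, Plb1 6.21 ± 0.56 and Cubn 3.70 ± 0.25 in b/b rats. The difference between the genotypes passed the threshold for 2 probe sets (0.0113%). One was Cybrd1, at -5.61 ± 0.29 in b/b against -1.81 ± 0.29 in +/b rats (difference -3.80 ± 0.40, limma adjusted p = 0.0218). The other, with no gene in the annotation, had a difference of -4.04 (limma adjusted p = 0.0223). Both lost the call without the replicate block (limma adjusted p = 0.252 and 0.338) and with the robust prior (0.059 and 0.108).

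**Figure D5:**
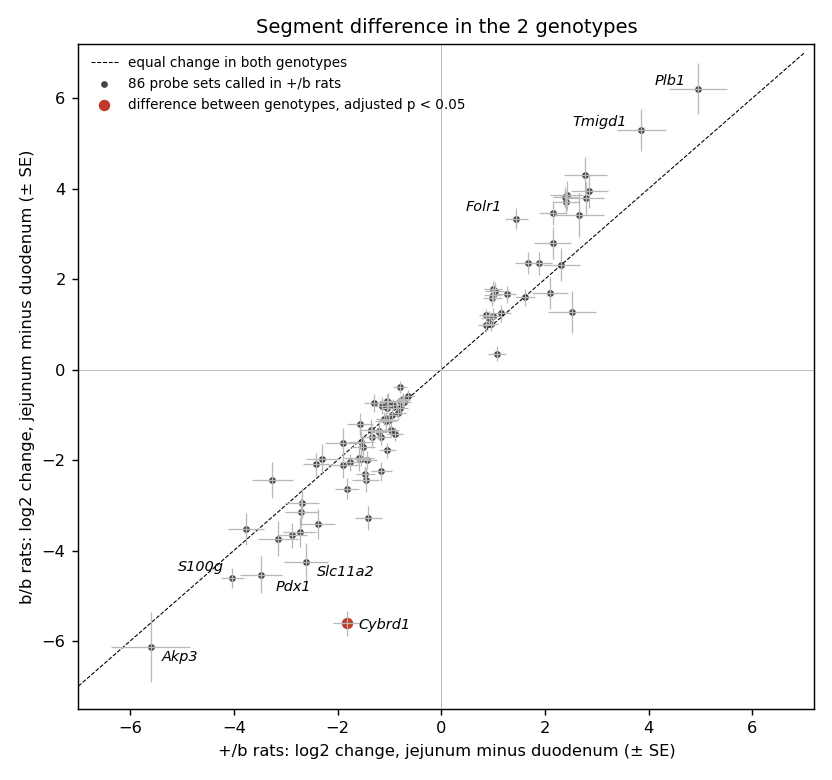
Log2 change between jejunum and duodenum in +/b rats (horizontal) and b/b rats (vertical) for the 86 probe sets called in +/b rats, each with its SE. All 86 lie in the quadrants of equal sign, and Cybrd1 (red, -1.81 against -5.61) lies farthest below the dashed line of equal change.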

How the data were processed

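RNA from scrapes was labelled with biotin and hybridised to Affymetrix rat arrays, 1 per segment and rat group, per the labels' protocols and the series design. The authors deposited 1 linear signal intensity per probe set, and the submitters' processing notes name MAS5 for 10 of 12 arrays, with no version or genome build. There were 31099 probe sets, including 57 controls. The platform annotation gave 1 gene for 20826 of the others, several for 436 and none for 9780. Each array was scaled to a 2% trimmed mean of 500. Tests were limited to the 17694 probe sets (10067 genes) whose mean signal over all 12 arrays reached 100.

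The model of log2(signal + 16) in limma 3.58.1 (under R 4.3.3) had the rat group as a fixed block, a segment effect in each genotype and an intensity trend in eBayes. Tests were two-sided, with Benjamini-Hochberg adjustment at 0.05. The fit has 4 residual degrees of freedom (11.1 with the prior). The pairing comes from the series design. Deviations from the group means of same-numbered arrays correlated at 0.277, 0.194 and 0.186 in +/b rats, and those of differently numbered arrays at -0.203 to -0.0126. Deviations from a mean of 3 arrays sum to 0, so positive values for the former go with negative ones for the latter. These values cannot tell a shared rat group from anything else shared by arrays of the same number. The labels do not say that rat groups were independent cohorts. The p-values measure the spread of the segment difference between these groups, pooled over both genotypes and moderated by the prior from all probe sets. Array signals carry no counts, so the number of arrays limits the precision.

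The fit was tested on simulated data. With variances drawn from the fitted prior the share of false calls was near the nominal one. With the moderated standard deviations of the probe sets as truth, whose tail is heavier than that prior, it was above the nominal share. The adjusted p-values may therefore be too small, and a robust prior was added as an alternative after that test. The spread before moderation was not simulated.

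The genes, gene lists and markers were chosen with earlier results of these data known, and support nothing by their choice. Named genes were up to 15 of largest change in each direction among called probe sets with 1 gene, the same direction in 3 rat groups and no overlap, a fixed set of 30 genes, and up to 4 members of each list described. Further genes were named after their values were seen. Unless stated otherwise, a called gene with several probe sets is shown by its called probe set of largest change, while list counts use the brightest. Of the fixed genes, Lct, Sis and Muc6 were not analysed here and Calb1 was under the filter. Alternatives covered the block, the arrays, the pseudocount, the filter, the scaling, the prior and leaving out rat groups.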

Additional observations from a re-analysis of the deposited data

Results flagged for a closer look

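The segment difference of Cybrd1, a brush border ferric reductase, differed between the genotypes by -3.80 on the log2 scale (b/b minus +/b, limma adjusted p = 0.0218), since the jejunum was lower by more in b/b than in +/b rats. A probe set that the annotation gives no gene differed by -4.04 in the same direction (limma adjusted p = 0.0223). Over all probe sets 777 had an unadjusted p under 0.05 for this difference.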

How the results depend on the processing

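Against 86 probe sets called (30 higher, 56 lower), 10 were called with no replicate block (4 and 6), 55 with the replicate block as a random effect (21 and 34), 2 without the intensity trend (0 and 2), and 211 with no rescaling (210 and 1), where the median of all probe sets was 1.60. Without 1 rat group the counts ran from 11 to 66 (4 to 28 higher, 7 to 38 lower), and without both duodenum arrays that were deposited unscaled, which left rat group 1, 11 were called (8 and 3). The robust prior, added after seeing the data, called 68 (23 and 45). Without b/b duodenum replicate 1 there were 83 (31 and 52). The other alternatives called between 60 and 101, with 24 of 83 higher under median centring. With no replicate block, although the series design pairs the arrays, 53 of the 61 called genes that were followed lost the call. The difference between genotypes was called for 2 probe sets, and for 0 with no replicate block (306 at an unadjusted p under 0.05 in limma) or with the robust prior (761). With no rescaling the changes of 39 genes had the opposite sign: Atp2b1 0.28, Trpv6 0.47, Vdr 0.91, Alpi 0.95, Heph 1.35, Epas1 0.55, Hmox1 0.93, Gata4 1.45, Hnf4a 1.58, Akr1b8 0.70, Akr1c13 0.64, Akr7a3 1.04, Hsd17b2 0.80, Ldhd 0.24, Txn1 0.82, Aldh4a1 0.69, Slc4a4 0.38, Car9 0.26, Car2 0.75, Slc13a1 0.44, Slc28a2 0.18, Slc19a1 0.55, Ada 0.70, Upp1 0.96, Pigr 0.91, Ghrl 0.15, Sst 1.04, Sct 1.08, Htatip2 0.19, Prap1 0.96, Wfdc21 0.11, Hapln4 0.12, Rbp7 0.39, Prnp 0.51, Slc10a2 1.27, Apoa4 1.38, Fabp1 1.24, Fabp2 1.34 and Elovl6 0.72. Among genes near 0, Slc10a2 had 0.027 under quantile normalization, 0.64 in rat group 1 alone and -0.39 to 0.47 without 1 rat group. Under median centring Slc5a1 had -0.085, Slc2a5 -0.048 and Slc15a1 -0.080, and without 1 rat group they ran from -0.31 to 0.39, from -0.21 to 0.38 and from -0.19 to 0.22. Apoa4 and Fabp2 had 0.045 and 0.028 under quantile normalization. With no rescaling, +/b duodenum replicates 2 and 3 kept their deposited trimmed means of 51.6 and 126.6, against 500.2 in replicate 1. That setting moved the median of all probe sets from 0.05 to 1.60. For the changes under the other settings the cause was not tested.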

Other observations

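Other groups of genes had small median changes between the segments. Of all probe sets tested, 10008 were above 0 and 7686 below. Of 30 oxidative phosphorylation genes 27 were below 0 in the jejunum (median -0.25), as were 22 of 28 glutathione and antioxidant genes (median -0.18) and all 9 MHC class II genes (median -0.23), with 0 called in each. The 11 crypt genes all lay above 0 (median 0.37, 0 called). At an unadjusted limma p under 0.05 stood 11 of these oxidative phosphorylation, 9 glutathione and antioxidant, 2 MHC class II and 2 crypt genes. Over all 17694 probe sets tested 1912 stood there, 1133 higher and 779 lower. Mcpt9, a mast cell protease, was higher in the jejunum (1.07 ± 0.17, limma adjusted p = 0.0208), with 399.5 to 450 in duodenum arrays and 842.6 to 1068 in jejunum arrays, while Aqp1, a water channel, had 1.00 ± 0.18 (limma adjusted p = 0.0381). Both were lost without rat group 1 (limma adjusted p = 0.205 and 0.25) or 2 (0.119 and 0.197).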
